A study of Homo sapiens with 12 samples.

Results

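MYC and its binding partners form a network of basic helix-loop-helix zipper transcription factors, and the transcripts of 9 genes of that network were followed in OCI-Ly7, an established cell line from a human diffuse large B-cell lymphoma whose expression resembles germinal-centre cells. The members were chosen by name, as the rows of the deposited count table that belong to MYC, MAX, MXD1, MXD3, MXD4, MXI1, MNT, MGA and MLX. All 9 were found, each as 1 row, among 78892 genes in the table, and all 9 were among the 17869 genes that had enough counts to be tested. The cells belonged to 4 groups of 3 libraries each. The first group received both drugs (HDAC3i+AZA in the labels), namely an HDAC3 inhibitor at 15 µM on days 2 and 4 together with 5-azacitidine at 100 nM daily from day 0 to day 4. The second received the inhibitor alone (HDAC3i), the third 5-azacitidine alone (AZA), and the fourth vehicle, and all cells were harvested on day 5. HDAC3 removes acetyl groups from histones as the enzyme of the NCoR and SMRT co-repressors, while 5-azacitidine enters newly made nucleic acid in place of cytidine and depletes DNA methyltransferases. The labels call the inhibitor only that, without naming the compound, and every library came from 1 cell line.

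MYC activates genes as a dimer with MAX, bound to the E-box CACGTG in their promoters, and drives ribosome production, metabolism and cell division. The MXD proteins, MXI1 among them, and MNT compete with MYC for MAX and for the same E-boxes, and repress genes there by bringing in the SIN3 co-repressor with its histone deacetylases. MLX is the partner of MondoA (gene MLXIP) and ChREBP (gene MLXIPL), which sense sugar phosphates, and MGA joins MAX to the Polycomb complex PRC1.6, known in mouse cells for silencing germline genes. MYC itself is rearranged or highly expressed in many aggressive B-cell lymphomas.

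The 12 libraries held 35947872 to 36337086 counts. Levels are given as normalised CPM, that is counts per 1000000 after scaling of the libraries by trimmed means (TMM), and levels of different genes are set side by side only as normalised CPM per kilobase of exon. Such values are shares of the library, so an equal change of all RNA in a cell cannot be seen in them, and fewer cells that express a gene and less of its RNA per cell cannot be told apart. Nothing in the labels states that a group's 3 libraries were separate cultures, and the p-values therefore reflect library-to-library spread alone, which could be technical. AZA replicate 1 and HDAC3i+AZA replicate 3 had the highest mitochondrial shares, 13.8% and 15.3% of the counts, against 9.59% to 13.02% in the other libraries. All 9 B-cell markers were present in every group, with summed levels of 4273 to 4333 CPM in cells given both drugs, 4207 to 4249 with the inhibitor, 3447 to 3505 with 5-azacitidine and 3250 to 3330 with vehicle. Markers of other cell types were low but moved with the inhibitor. The 7 markers of T and NK cells summed to 13.4 to 15.6 CPM with both drugs, 8.49 to 10.1 with the inhibitor, 2.40 to 2.59 with 5-azacitidine and 1.79 to 2.66 with vehicle, with CD8A at 0 in all 12 libraries. The 7 myeloid markers summed to 2.59 to 3.35 CPM with both drugs, 1.41 to 2.02 with the inhibitor, 0.139 to 0.390 with 5-azacitidine and 0.332 to 0.497 with vehicle, with S100A8 and ELANE at 0 throughout. The 5 erythroid, stromal and epithelial markers summed to 5.06 to 7.39 CPM with both drugs, 2.656 to 3.204 with the inhibitor, 0.111 to 0.221 with 5-azacitidine and 0 to 0.166 with vehicle, nearly all of it COL1A1, with HBB, COL1A2 and KRT18 at 0 throughout. The part of these markers in the results was not tested.

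Promoter sequence was taken from RefSeq windows on GRCh38.p14 that reach from 250 bases before to 50 bases after a start site. Windows were found for 8 of the 9 members. The E-box CACGTG, which reads the same on both strands, stood in a window of 3 of those 8 genes, MXD4, MNT and MLX, and in none of the windows of MAX, MXD1, MXD3, MXI1 and MGA. It stood in 7.26% of all 35116 windows, and 12.3% of tested genes with a window had it. The 250 bases before the start are shown for these 3 members, for MXI1, which changed most and had no match in any of its 3 windows, and for the glycolysis genes LDHA and HK2, textbook targets of MYC that are taken up later. Capitals mark CACGTG.
MXD4, chr4:2262110-2262359, minus strand: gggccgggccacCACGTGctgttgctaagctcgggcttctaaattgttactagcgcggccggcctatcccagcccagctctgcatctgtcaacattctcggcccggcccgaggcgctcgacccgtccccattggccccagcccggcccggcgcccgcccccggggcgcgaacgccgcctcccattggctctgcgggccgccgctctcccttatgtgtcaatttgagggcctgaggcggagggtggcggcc
MNT, chr17:2401061-2401310, minus strand: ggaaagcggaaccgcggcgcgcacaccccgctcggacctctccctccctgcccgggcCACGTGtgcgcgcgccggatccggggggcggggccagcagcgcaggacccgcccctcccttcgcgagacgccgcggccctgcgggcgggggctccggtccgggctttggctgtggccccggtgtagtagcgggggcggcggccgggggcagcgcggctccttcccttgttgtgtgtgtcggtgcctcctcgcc
MLX, chr17:42566850-42567099, plus strand: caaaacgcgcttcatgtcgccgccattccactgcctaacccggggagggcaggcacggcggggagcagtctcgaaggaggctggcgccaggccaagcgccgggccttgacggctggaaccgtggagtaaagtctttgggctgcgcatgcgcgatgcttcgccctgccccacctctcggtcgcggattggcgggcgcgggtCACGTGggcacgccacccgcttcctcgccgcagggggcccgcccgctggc
MXI1, chr10:110207355-110207604, plus strand: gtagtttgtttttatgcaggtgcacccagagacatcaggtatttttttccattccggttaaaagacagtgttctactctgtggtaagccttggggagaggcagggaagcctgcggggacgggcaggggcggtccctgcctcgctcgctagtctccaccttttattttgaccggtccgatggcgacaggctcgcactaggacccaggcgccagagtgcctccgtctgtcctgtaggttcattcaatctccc
LDHA, chr11:18394313-18394562, plus strand: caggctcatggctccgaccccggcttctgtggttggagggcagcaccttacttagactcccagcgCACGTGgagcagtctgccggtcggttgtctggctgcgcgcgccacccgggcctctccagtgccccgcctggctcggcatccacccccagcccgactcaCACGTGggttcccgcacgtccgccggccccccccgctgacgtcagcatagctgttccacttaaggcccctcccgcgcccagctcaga
HK2, chr2:74834920-74835169, plus strand: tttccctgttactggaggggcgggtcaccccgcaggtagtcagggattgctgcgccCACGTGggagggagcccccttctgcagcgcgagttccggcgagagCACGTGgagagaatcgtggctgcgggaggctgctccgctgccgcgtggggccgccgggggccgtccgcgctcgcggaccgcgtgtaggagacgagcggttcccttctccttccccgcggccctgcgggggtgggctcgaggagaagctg
The E-box begins at position −238 before the start in MXD4, −193 in MNT and −50 in MLX. The window shown for LDHA has a pair of them, at −185 and −87, and that for HK2 another, at −194 and −149. LDHA and HK2 each had a further window without a match, which is not shown. Among other target genes looked at, ODC1 and TERT had a match in a window, and TXNIP and CDKN1A had none. The 3 members with the E-box did not move together, since MXD4 rose and MNT and MLX fell with the inhibitor, as given below. A match is a description of the letters, and its absence says nothing of whether a factor binds.

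MYC (ENSG00000136997, chromosome 8, 127735434 to 127742951, plus strand) was the most abundant member in every group. Its level was 318, 286 and 337 normalised CPM with both drugs, 323, 315 and 308 with the inhibitor, 224, 210.4 and 205 with 5-azacitidine, and 264, 246 and 247 with vehicle. All 6 libraries with the inhibitor lay above all 6 without it, and the 3 with 5-azacitidine alone lay below the 3 with vehicle. Against vehicle, MYC rose with both drugs (log2 fold change 0.31 ± 0.06 SE, edgeR adjusted p = 3.35e-05) and with the inhibitor (0.32 ± 0.06, edgeR adjusted p = 3.19e-05), and fell by 0.24 ± 0.06 with 5-azacitidine (edgeR adjusted p = 0.00607). The fall with 5-azacitidine lost its call without vehicle replicate 1, which had the highest MYC level of its group (−0.21, edgeR adjusted p = 0.0563). Of the exonic bases of MYC, 20.7% are shared with the antisense gene CASC11, and reads over them entered neither gene.

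MAX (ENSG00000125952, chromosome 14, 65006174 to 65102695, minus strand), the shared partner, varied least. It stood at 112, 109.7 and 113 normalised CPM with both drugs, 102, 99.8 and 104 with the inhibitor, 104, 103 and 99.3 with 5-azacitidine, and 101, 99.1 and 104 with vehicle. Its log2 fold change was 0.01 with the inhibitor, with a 95% interval of −0.10 to 0.11, and 0.01 with 5-azacitidine, with an interval of −0.09 to 0.11. With both drugs it rose by 0.13 ± 0.05 (edgeR adjusted p = 0.0216), with all 3 libraries above those of vehicle. That call was lost without vehicle replicate 1, vehicle replicate 2 or HDAC3i+AZA replicate 3 (edgeR adjusted p = 0.0651, 0.0903 and 0.0576) and with no filter on low counts (0.112).

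**Figure D1:**
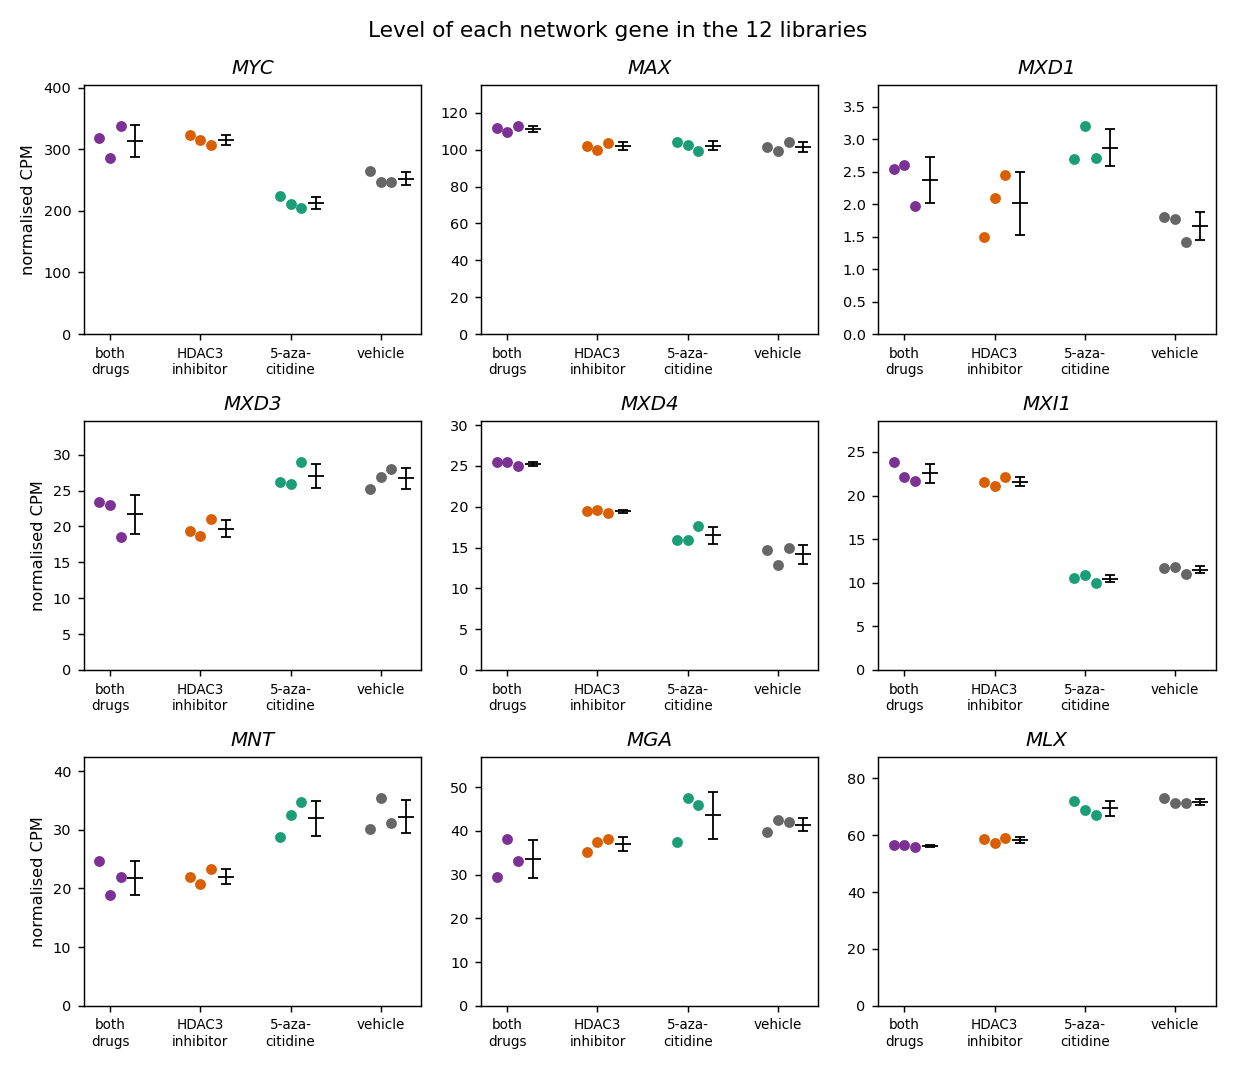
Normalised CPM (vertical axis, from 0) of each of the 9 genes in the 12 libraries, with 1 point per library and, beside each group, the mean and SD of its 3 libraries. The MYC, MXD4 and MXI1 points with the inhibitor, alone or with 5-azacitidine, lie above those without it, and the MXD3, MNT and MLX points lie below.

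The MXD genes and MNT, the antagonists of MYC, split into risers and fallers. MXI1 (ENSG00000119950, chromosome 10, 110207605 to 110287365, plus strand), a protein of the MXD family that represses through SIN3, had 23.8, 22.1 and 21.7 normalised CPM with both drugs, 21.6, 21.1 and 22.2 with the inhibitor, 10.5, 10.8 and 10.01 with 5-azacitidine, and 11.7, 11.8 and 11.01 with vehicle. No library with the inhibitor came near any without it. Its rise was the largest of the 9 members, 1.96-fold with both drugs (log2 0.97 ± 0.08, edgeR adjusted p = 2.97e-11) and 1.88-fold with the inhibitor (0.91 ± 0.08, edgeR adjusted p = 1.86e-10). With 5-azacitidine the change was −0.14 ± 0.08 and did not pass (edgeR adjusted p = 0.335). The 3 libraries lay below those of vehicle, as for 12.9% of tested genes.

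MXD4 (ENSG00000123933, chromosome 4, 2247432 to 2262109, minus strand), another repressor of the MXD family, was graded over the groups. It had 25.4, 25.4 and 25.02 normalised CPM with both drugs, 19.5, 19.6 and 19.2 with the inhibitor, 15.9, 15.9 and 17.7 with 5-azacitidine, and 14.6, 12.8 and 14.99 with vehicle. The ranges of the 4 groups did not overlap. MXD4 rose 1.79-fold with both drugs (log2 0.84 ± 0.08, edgeR adjusted p = 4.89e-10) and 1.37-fold with the inhibitor (0.46 ± 0.08, edgeR adjusted p = 1.91e-05). With 5-azacitidine the change was 0.22 ± 0.08, which did not pass (edgeR adjusted p = 0.082). That comparison passed with DESeq2 (DESeq2 adjusted p = 0.042) and with a stricter filter (edgeR adjusted p = 0.0456).

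MXD3 and MNT went the other way. MXD3 (ENSG00000213347, chromosome 5, 177301461 to 177312757, minus strand), the MXD gene known for its expression in dividing cells, had 23.5, 23.01 and 18.6 normalised CPM with both drugs, 19.3, 18.7 and 21.00 with the inhibitor, 26.1, 25.9 and 28.9 with 5-azacitidine, and 25.2, 26.9 and 27.96 with vehicle. Its 6 libraries with the inhibitor lay below the 6 without it. It fell by 0.30 ± 0.08 on the log2 scale with both drugs (edgeR adjusted p = 0.00314) and by 0.44 ± 0.08 with the inhibitor (edgeR adjusted p = 8.07e-05). The value with both drugs was −0.18 and did not pass without the 2 libraries of highest mitochondrial share (edgeR adjusted p = 0.0579), the lowest MXD3 library, HDAC3i+AZA replicate 3, being one of them. MXD3 shares 43.7% of its exonic bases with RAB24 and PRELID1, and reads over those bases were not counted. MNT (ENSG00000070444, chromosome 17, 2384073 to 2401104, minus strand), an antagonist present in resting and dividing cells alike, had 24.7, 18.9 and 21.98 normalised CPM with both drugs, 22.03, 20.7 and 23.3 with the inhibitor, 28.8, 32.4 and 34.7 with 5-azacitidine, and 30.1, 35.4 and 31.1 with vehicle. Its libraries with the inhibitor all lay below those without it. MNT fell by 0.56 ± 0.09 with both drugs (edgeR adjusted p = 5.29e-06) and by 0.55 ± 0.09 with the inhibitor (edgeR adjusted p = 8.93e-06). With 5-azacitidine its log2 fold change was −0.01, with a 95% interval of −0.19 to 0.17.

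MXD1 (ENSG00000059728, chromosome 2, 69897688 to 69942945, plus strand), the founding MXD gene and a marker of differentiation in several tissues, was scarce, with 50 to 117 counts per library. It had 2.55, 2.61 and 1.97 normalised CPM with both drugs, 1.496, 2.09 and 2.45 with the inhibitor, 2.69, 3.19 and 2.71 with 5-azacitidine, and 1.79, 1.77 and 1.41 with vehicle. The groups with 5-azacitidine, alone or with the inhibitor, lay above vehicle, and the inhibitor alone overlapped it. MXD1 was the antagonist called higher with 5-azacitidine alone, 1.72-fold (log2 0.79 ± 0.19, edgeR adjusted p = 0.00843). The call was lost without vehicle replicate 3 or AZA replicate 2 (edgeR adjusted p = 0.0555 and 0.0522). With both drugs it rose by 0.51 ± 0.20 (edgeR adjusted p = 0.0265), a call lost without vehicle replicate 3, HDAC3i+AZA replicate 1 or HDAC3i+AZA replicate 2 (edgeR adjusted p = 0.116, 0.0858 and 0.0888) and with DESeq2 (DESeq2 adjusted p = 0.0582). With the inhibitor alone its log2 fold change was 0.28, with a 95% interval of −0.13 to 0.69.

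MLX and MGA, which lead to the other arms of the network, were lower with both drugs. MLX (ENSG00000108788, chromosome 17, 42567072 to 42573239, plus strand) had 56.4, 56.7 and 56.00 normalised CPM with both drugs, 58.8, 57.1 and 58.98 with the inhibitor, 72.2, 68.8 and 67.3 with 5-azacitidine, and 73.1, 71.2 and 71.3 with vehicle. The gap between the libraries with and without the inhibitor was wider than the spread of either set. MLX fell by 0.35 ± 0.05 with both drugs (edgeR adjusted p = 2.69e-06) and by 0.30 ± 0.05 with the inhibitor (edgeR adjusted p = 2.86e-05). MGA (ENSG00000174197, chromosome 15, 41621134 to 41773081, plus strand) was less even, with 29.5, 38.12 and 33.2 normalised CPM with both drugs, 35.2, 37.5 and 38.2 with the inhibitor, 37.4, 47.5 and 45.8 with 5-azacitidine, and 39.8, 42.6 and 41.9 with vehicle. It fell by 0.30 ± 0.08 with both drugs (edgeR adjusted p = 0.00301). With the inhibitor alone its 3 libraries lay below those of vehicle, but the change of −0.16 ± 0.08 did not pass (edgeR adjusted p = 0.105), and it passed when only those 2 groups were fitted (−0.14, edgeR adjusted p = 0.0362).

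**Figure D2:**
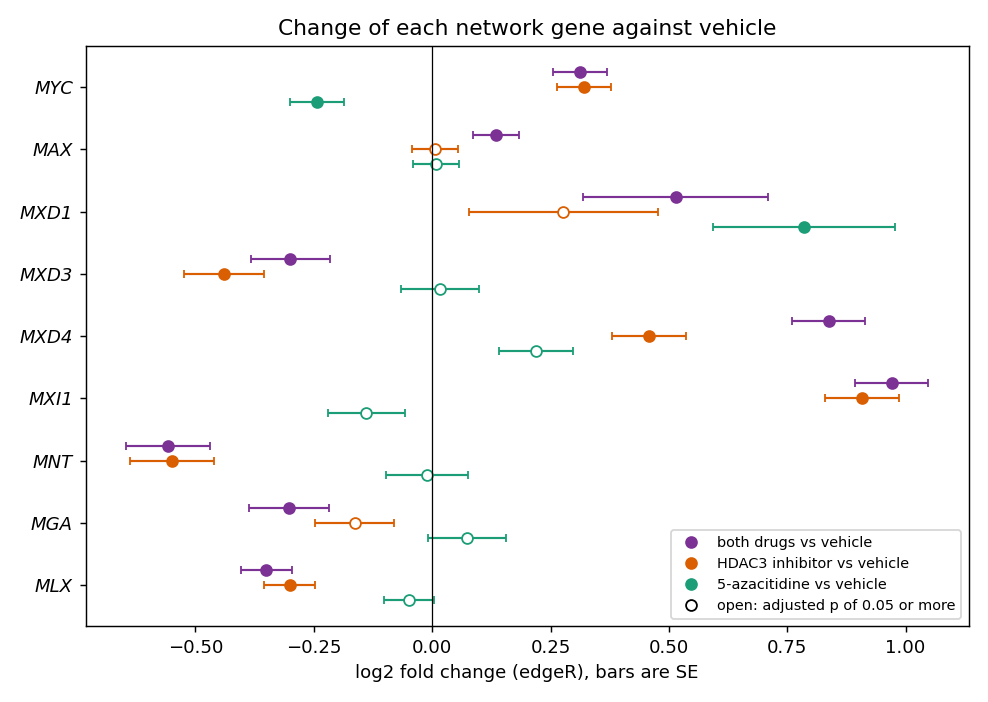
Log2 fold change against vehicle (horizontal axis, edgeR) of each of the 9 genes for both drugs, the inhibitor and 5-azacitidine, with bars for the SE and open points where the adjusted p was 0.05 or more. With both drugs MXI1 and MXD4 lie farthest to the right and MNT farthest to the left, and the filled 5-azacitidine points are MYC at −0.24 and MXD1 at 0.79.

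Counted over the network, 5 members rose and 4 fell with both drugs against vehicle, in a comparison that called 57.1% of all tested genes (29.6% higher and 27.5% lower). The inhibitor alone raised 3 members (MYC, MXD4 and MXI1) and lowered 3 (MXD3, MNT and MLX), where 51.3% of all tested genes were called (26.4% higher and 24.9% lower). 5-azacitidine alone raised MXD1 and lowered MYC, beside 9.06% of all tested genes (4.31% higher and 4.75% lower). The count for 5-azacitidine was 1 without vehicle replicate 1, vehicle replicate 3 or AZA replicate 2. The libraries of all 9 members did not overlap between both drugs and vehicle, as was so for 60.4% of tested genes. Those of 7 members did not overlap between the inhibitor and vehicle (60.1% of tested genes), 3 of them higher (30.2% of tested genes) and 4 lower (29.9%). Between 5-azacitidine and vehicle those of MYC, MXD1, MXD4 and MXI1 did not overlap, as was so for 25.7% of tested genes (12.8% higher and 12.9% lower). All members but MXD1 averaged over 5 CPM in every group. Among the 10016 genes with a mean of at least 5 CPM, 25% rose and 43.4% fell with both drugs. With the inhibitor 22.2% of these genes rose and 40.3% fell, and with 5-azacitidine 5.62% and 8.10%. The members' shares are read beside these backgrounds. The 3 comparisons share the vehicle libraries, so they are not independent of one another.

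The comparison of both drugs with each single drug asks what the second drug adds. Against 5-azacitidine, 4 members rose and 4 fell with both drugs, where 53.8% of tested genes were called (28.7% higher and 25.1% lower). Among genes with a mean of at least 5 CPM, 25.7% rose and 39.7% fell. The libraries did not overlap for 57.2% of tested genes, 30.5% with both drugs higher. MXI1 rose by 1.11 ± 0.08 (edgeR adjusted p = 3.29e-12), MXD4 by 0.62 ± 0.08, MYC by 0.56 ± 0.06 and MAX by 0.13 ± 0.05, while MNT, MGA, MXD3 and MLX fell by 0.55, 0.38, 0.32 and 0.30. The MAX call was lost without any one of AZA replicate 2, AZA replicate 3, HDAC3i+AZA replicate 1 or HDAC3i+AZA replicate 3 (edgeR adjusted p = 0.0665, 0.13, 0.0635 and 0.0797), and MGA was called although its libraries overlapped. Of tested genes, 7.34% were called with both drugs against the inhibitor (4.51% higher, and 5.45% among genes of at least 5 CPM). Among the members 1 changed. This was MXD4, with 25.02 to 25.4 normalised CPM with both drugs and 19.2 to 19.6 with the inhibitor (log2 0.38 ± 0.07, edgeR adjusted p = 0.00202). MYC stood at −0.01 in this comparison, with a 95% interval of −0.12 to 0.11, and MXI1 at 0.06, with an interval of −0.09 to 0.21. MAX stood at 0.13 with all 3 libraries above, as for 14.8% of tested genes. The MAX change passed with DESeq2 (DESeq2 adjusted p = 0.0361) and not with edgeR (edgeR adjusted p = 0.116).

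The interaction, which is the effect of 5-azacitidine on top of the inhibitor minus its effect without it, was called by edgeR for 0 of the 9 members and for 0.716% of tested genes. At an unadjusted p under 0.05 there was 1 member, MYC (0.24 ± 0.08, edgeR adjusted p = 0.187), and DESeq2 and limma each called 0. It passed without HDAC3i+AZA replicate 2, the lowest MYC library of its group (0.30, edgeR adjusted p = 0.0175). For MXD4 the interaction was 0.16, with a 95% interval of −0.06 to 0.38.

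Set against each other per kilobase of exon, MYC transcript exceeded every other member in every group, with means of 51.3, 51.6, 34.9 and 41.3 normalised CPM per kb with both drugs, the inhibitor, 5-azacitidine and vehicle. MAX followed at 17.8 and MLX at 13.2 with both drugs, while MLX (16.9) stood just above MAX (16.2) in vehicle, without overlap. The order of the repressors differed. With both drugs it ran MXD3 (4.57), MXI1 (3.82), MXD4 (3.68), MNT (2.51), MGA (1.67) and MXD1 (0.374), the first 3 overlapping their neighbours. In vehicle it ran MXD3 (5.63), MNT (3.70), MGA (2.06), MXD4 (2.06), MXI1 (1.95) and MXD1 (0.261), where MGA, MXD4 and MXI1 overlapped. These levels divide by the whole exonic length, including bases where reads were left out, which lowers MXD3 most, then MYC (20.7% shared), MLX (18.2%) and MAX (17.4%).

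Summed over MXD1, MXD3, MXD4, MXI1 and MNT, the repressors of the MXD and MNT kind came to 14.95 ± 0.93 normalised CPM per kb with both drugs, 13.5 ± 0.50 with the inhibitor, 13.98 ± 0.74 with 5-azacitidine and 13.6 ± 0.39 with vehicle (SD, n = 3 each). The 12 sums lay between 13.1 and 15.9, but their makeup differed. MXI1 made up 25.2% to 26.1% with both drugs and 26.7% to 27.4% with the inhibitor, against 11.5% to 13.3% with 5-azacitidine and 13.6% to 15.1% with vehicle. MXD4 took 23.2% to 25.9% with both drugs and 19.9% to 21.8% with the inhibitor, against 16.7% to 17.4% with 5-azacitidine and 13.5% to 16.2% with vehicle. MNT took 14.6% to 17.97% with both drugs and 18.2% to 19.04% with the inhibitor, against 24.8% to 26.96% with 5-azacitidine and 26.01% to 29.3% with vehicle, and MXD3 27.8% to 32.6% with both drugs and 30.1% to 31.5% with the inhibitor, against 39.4% to 41.4% with 5-azacitidine and 40.3% to 42.9% with vehicle. The ratio of MYC to the sum was 3.44 ± 0.42 with both drugs, 3.83 ± 0.21 with the inhibitor, 2.51 ± 0.24 with 5-azacitidine and 3.04 ± 0.21 with vehicle (SD, n = 3 each). The libraries of both drugs and of vehicle overlapped in this ratio, and those with 5-azacitidine alone lay below all others. These sums and ratios are given without a test. They divide by the whole exonic length, and the sums, shares and ratios depend on this choice, mainly through MXD3. Per kb of unshared exon MXD3 averaged 8.12 normalised CPM with both drugs, 7.37 with the inhibitor, 10.11 with 5-azacitidine and 9.997 with vehicle.

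**Figure D3:**
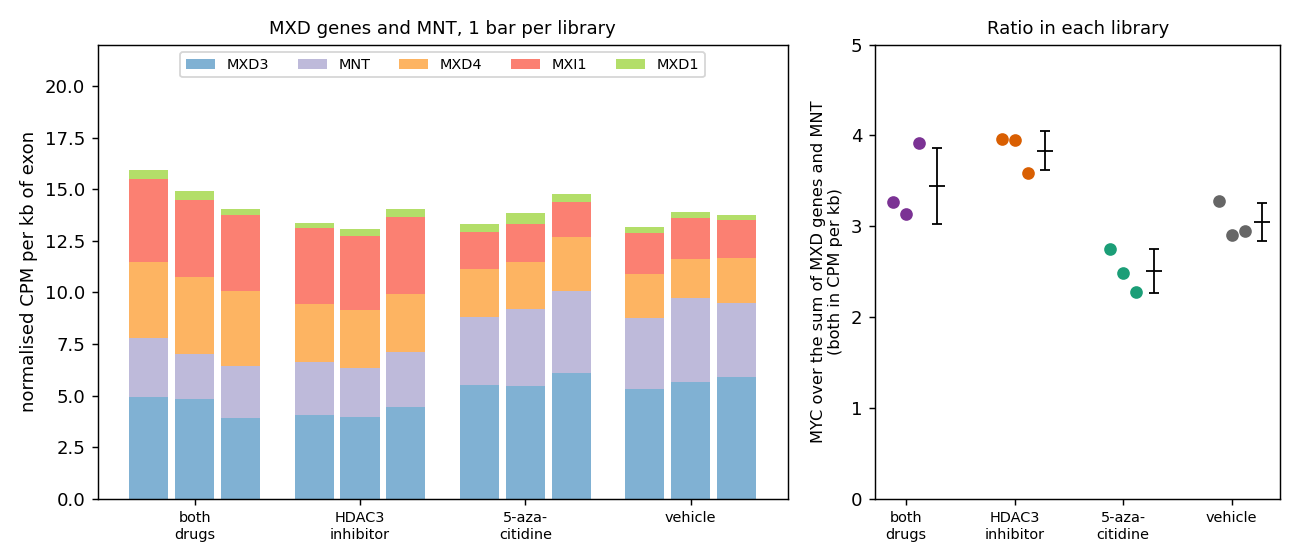
Left, normalised CPM per kb of exon of MXD3, MNT, MXD4, MXI1 and MXD1, stacked in 1 bar per library, and right, the ratio of MYC to that sum in each library with the mean and SD of each group. With the whole exonic length as divisor, bar heights stay between 13.1 and 15.9. The MXI1 and MXD4 parts are larger, and the MXD3 and MNT parts smaller, in the 6 libraries with the inhibitor.

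Genes around the network are given as lists whose members were chosen by function. Their counts are read beside those of well expressed genes in general, because 43.4% of the 10016 genes with a mean of at least 5 CPM fell and 25% rose with both drugs (median log2 fold change −0.11), 40.3% and 22.2% with the inhibitor (−0.10), and 8.10% and 5.62% with 5-azacitidine (−0.01).

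Among 8 genes that regulate MYC transcription in B cells, 1 rose and 4 fell with both drugs, 2 rose and 5 fell with the inhibitor, and 3 fell with 5-azacitidine. PRDM1, the plasma-cell repressor Blimp-1, which silences MYC in differentiating B cells, had 8.85 ± 0.46 normalised CPM with both drugs, 9.29 ± 0.58 with the inhibitor, 2.39 ± 0.11 with 5-azacitidine and 2.28 ± 0.17 with vehicle (SD, n = 3 each). Its log2 rise was 1.95 ± 0.12 with both drugs and 2.02 ± 0.12 with the inhibitor, so PRDM1 and MYC transcripts were both higher in the same 2 groups. IRF4, a plasma-cell and activation factor, had 54.01 ± 5.978 normalised CPM with both drugs, 66.9 ± 4.8 with the inhibitor, 79.2 ± 1.4 with 5-azacitidine and 110.3 ± 6.7 with vehicle. It fell against vehicle by 1.03 ± 0.07 with both drugs, 0.72 ± 0.07 with the inhibitor and 0.48 ± 0.07 with 5-azacitidine. TCF3, the E-protein E2A, had 612 ± 50.1 normalised CPM with both drugs, 731 ± 7.1 with the inhibitor, 686 ± 15 with 5-azacitidine and 918 ± 39.9 with vehicle, and fell in all 3 comparisons. The 5-azacitidine falls of IRF4 and TCF3 (edgeR adjusted p = 2.27e-05 and 7.37e-06) kept their call under every alternative run. CTCF, the insulator protein, fell by 0.27 ± 0.05 with both drugs. BCL6, the germinal-centre repressor, and PVT1, a non-coding neighbour of MYC, did not pass with both drugs (−0.09 and 0.05). The count of 3 for 5-azacitidine was 5 without the 2 libraries of highest mitochondrial share.

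Of 15 cofactors of MYC, 12 fell and 2 rose with both drugs, 12 fell and 1 rose with the inhibitor, and 7 fell with 5-azacitidine, with medians of −0.40, −0.29 and −0.15. TRRAP, the scaffold that brings histone acetyltransferases to MYC, had 109.9 ± 7.7 normalised CPM with both drugs, 129.7 ± 5.8 with the inhibitor, 132 ± 6.3 with 5-azacitidine and 177 ± 5.7 with vehicle (SD, n = 3 each). It fell by 0.69 ± 0.06 with both drugs, by 0.45 ± 0.06 with the inhibitor and by 0.43 ± 0.06 with 5-azacitidine (edgeR adjusted p = 1.04e-05). CREBBP, an acetyltransferase, fell by 0.76 ± 0.08 with both drugs and by 0.61 ± 0.08 with the inhibitor. WDR5, which anchors MYC to chromatin, fell by 0.57 ± 0.05 with both drugs and 0.53 ± 0.05 with the inhibitor, and the acetyltransferase KAT2A by 0.52 ± 0.05 and 0.57 ± 0.05. The 2 that rose with both drugs, named after their values were seen, were ZBTB17 (Miz-1), through which MYC represses genes, at 0.24 ± 0.06, and the elongation kinase CDK9 at 0.18 ± 0.06, which lost its call without HDAC3i+AZA replicate 1 (edgeR adjusted p = 0.057). The count for 5-azacitidine was 4 without vehicle replicate 2, vehicle replicate 3 or AZA replicate 3, and 2 without AZA replicate 2.

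Genes of the SIN3 co-repressor, which the MXD proteins and MNT bring to DNA, were mostly lower in the groups where MXI1 and MXD4 were higher. A link between those changes was not tested. Of 17, 11 fell and 1 rose with both drugs and likewise with the inhibitor, with medians of −0.23 and −0.24. Among well expressed genes 43.4% fell and 25% rose with both drugs, and 40.3% and 22.2% with the inhibitor. With 1 library left out, 9 to 12 of the 17 fell with both drugs and 10 to 11 with the inhibitor. With 5-azacitidine edgeR, DESeq2 and limma each called 0, and 4 had an unadjusted p under 0.05. SAP30, a SIN3 subunit, had 43.6 ± 3.5 normalised CPM with both drugs, 44.6 ± 0.50 with the inhibitor, 61.8 ± 1.9 with 5-azacitidine and 67.8 ± 1.9 with vehicle (SD, n = 3 each). It fell by 0.64 ± 0.06 with both drugs, and ING2, which reads methylated histone H3, by 0.60 ± 0.09, BRMS1 by 0.44 ± 0.06 and the histone chaperone RBBP4 by 0.36 ± 0.05. The scaffold SIN3A fell by 0.23 ± 0.06 with both drugs, while SIN3B and the deacetylases HDAC1 and HDAC2 did not pass (−0.15, −0.02 and 0.11). The 1 riser, named after its values were seen, was the chaperone RBBP7 at 0.26 ± 0.05.

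Of 16 genes that act on MYC protein stability, 13 fell with both drugs and 14 with the inhibitor, and none rose. They include factors that stabilise MYC as well as factors that destroy it. CIP2A, which shields MYC from dephosphorylation, had 41.8 ± 3.4 normalised CPM with both drugs, 45.9 ± 0.20 with the inhibitor, 68.5 ± 2.5 with 5-azacitidine and 69.4 ± 0.93 with vehicle (SD, n = 3 each), a fall of 0.73 ± 0.06 with both drugs. USP36, a nucleolar deubiquitinase of MYC, fell by 0.63 ± 0.05, SET, an inhibitor of the phosphatase PP2A, by 0.45 ± 0.05, and the mitotic kinase PLK1 by 0.35 ± 0.05. Among the factors of degradation, the ubiquitin ligase subunits FBXW7 and SKP2 fell by 0.28 ± 0.07 and 0.43 ± 0.05, and GSK3B, which phosphorylates MYC for degradation, by 0.40 ± 0.05. These are transcript levels, and MYC protein was not measured here.

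Genes that MYC is known to activate were mostly lower in the groups where its transcript was higher. Of 30 genes of ribosome biogenesis, edgeR called 26 lower and 0 higher with both drugs (median −0.48), and 24 lower and 0 higher with the inhibitor (−0.41). DESeq2 called 27 lower and 1 higher with both drugs. MYBBP1A, a nucleolar protein, had 141 ± 14 normalised CPM with both drugs, 156 ± 1.2 with the inhibitor, 204 ± 5.9 with 5-azacitidine and 235 ± 5.9 with vehicle (SD, n = 3 each), a fall of 0.74 ± 0.06 with both drugs (edgeR adjusted p = 1.79e-11). UTP20, of the small-subunit processome, fell by 0.96 ± 0.09, RRN3, which brings RNA polymerase I to its promoter, by 0.78 ± 0.07, and WDR43 by 0.63 ± 0.05. With 5-azacitidine alone, where MYC was lower, edgeR called 6 of the 30 lower and 0 higher, with a median of −0.08, while DESeq2 and limma each called 6 lower and 1 higher. At an unadjusted edgeR p under 0.05, 9 were lower and 1 higher. The edgeR count was 2 without vehicle replicate 1 or vehicle replicate 3, and 3 without AZA replicate 2 or AZA replicate 3.

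Of 20 metabolic genes, 18 fell and none rose with both drugs (median −0.42), and 15 fell and none rose with the inhibitor (−0.33). HK2, hexokinase 2, which starts glycolysis, had 62.00 ± 1.4 normalised CPM with both drugs, 74.7 ± 0.91 with the inhibitor, 98.7 ± 1.042 with 5-azacitidine and 123 ± 5.5 with vehicle (SD, n = 3 each). It fell by 0.98 ± 0.05 with both drugs (edgeR adjusted p = 6.09e-15), by 0.72 ± 0.05 with the inhibitor and by 0.31 ± 0.05 with 5-azacitidine (edgeR adjusted p = 0.000145). LDHA, which makes lactate, had 1250 ± 59 normalised CPM with both drugs, 1357 ± 32 with the inhibitor, 2037 ± 187 with 5-azacitidine and 2244 ± 126 with vehicle, and fell by 0.84 ± 0.06 with both drugs (edgeR adjusted p = 2.38e-12). The polyamine genes ODC1 and SRM fell by 0.57 ± 0.05 and 0.58 ± 0.05 with both drugs, and SRM by 0.28 ± 0.05 with 5-azacitidine (edgeR adjusted p = 0.000488). With 5-azacitidine 6 of the 20 fell, and 3 without vehicle replicate 1 or AZA replicate 2. CACGTG stood in a window of 11 of the 16 metabolic genes that had one, and of 10 of 24 genes of ribosome biogenesis. Of tested genes with a window, 12.3% had it. Among lists not defined by MYC activation, 6 of 15 germline genes, 4 of 11 genes of MYC protein stability and 3 of 10 cofactors had it. So did 2 of 12 genes of PRC1.6, 1 of 16 of SIN3, 1 of 10 MYC-repressed genes and 0 of 7 regulators of MYC transcription. These counts carry no test.

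Of 14 genes of the cell cycle and telomerase that MYC activates, 13 fell and 1 rose with both drugs, and 11 fell and 1 rose with the inhibitor (medians −0.60 and −0.41). TERT, the catalytic subunit of telomerase, had 39.2 ± 5.4 normalised CPM with both drugs, 51.5 ± 0.84 with the inhibitor, 75.6 ± 2.8 with 5-azacitidine and 114.3 ± 4.3 with vehicle (SD, n = 3 each). It fell by 1.54 ± 0.07 with both drugs, 1.15 ± 0.07 with the inhibitor and 0.60 ± 0.07 with 5-azacitidine (edgeR adjusted p = 1.08e-06). TFAP4, the factor AP4, fell by 1.04 ± 0.07 with both drugs, the DNA glycosylase UNG by 0.84 ± 0.05 and RCC1, a chromatin-bound exchange factor, by 0.59 ± 0.05. The 1 riser, named after its values were seen, was CCND2, cyclin D2, with no count in any vehicle library and a mean of 1.27 CPM with both drugs and 0.765 CPM with the inhibitor, and it could be tested only through those groups. With 5-azacitidine 3 of the 14 fell, and 1 without vehicle replicate 2 or AZA replicate 3.

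Of 15 listed genes that MYC is known to repress, 11 had enough counts to be tested, and 6 of these averaged under 1 CPM in vehicle, so that some could be tested only through the groups where they were high. Nothing is read from the list as a whole. CDKN1A, the p21 inhibitor of cyclin-dependent kinases, had 63.6 ± 2.6 normalised CPM with both drugs, 33.9 ± 3.1 with the inhibitor, 2.96 ± 0.42 with 5-azacitidine and 0.996 ± 0.20 with vehicle (SD, n = 3 each). It rose in all 3 comparisons, by 5.99 ± 0.12 with both drugs, 5.08 ± 0.12 with the inhibitor and 1.57 ± 0.17 with 5-azacitidine (log2, edgeR adjusted p = 8.06e-24, 7e-22 and 4.46e-07). GADD45B, a stress gene, had 40.2 ± 1.9 normalised CPM with both drugs, 36.4 ± 3.2 with the inhibitor, 15.9 ± 1.026 with 5-azacitidine and 16.04 ± 0.76 with vehicle, and rose by 1.32 ± 0.08 and 1.18 ± 0.08 with both drugs and the inhibitor. ZFP36, which destroys AU-rich messages, had 20.8 ± 3.2 normalised CPM with both drugs, 21.02 ± 0.50 with the inhibitor, 10.2 ± 0.57 with 5-azacitidine and 11.4 ± 0.68 with vehicle, and rose by 0.87 ± 0.10 and 0.89 ± 0.10. PDGFRB, a growth factor receptor, had 5.79 ± 0.72 normalised CPM with both drugs, 4.07 ± 0.47 with the inhibitor, 0.130 ± 0.065 with 5-azacitidine and 0.147 ± 0.062 with vehicle.

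**Figure D4:**
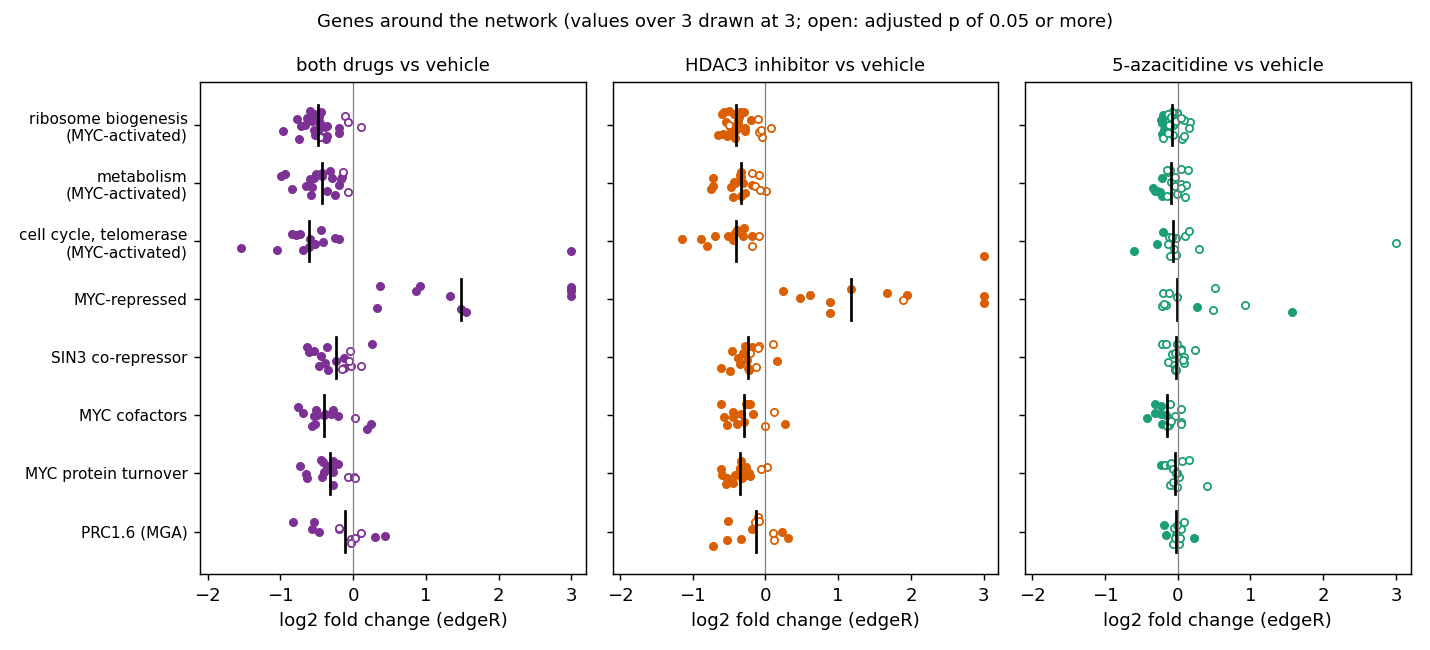
Log2 fold change against vehicle (horizontal axis, edgeR, values above 3 drawn at 3) of the tested genes of 8 lists, 1 point per gene, open where the adjusted p was 0.05 or more, with a black line at the list median. With both drugs and with the inhibitor the medians of the MYC-activated lists lie between −0.60 and −0.33, and with 5-azacitidine between −0.10 and −0.06. The point at the right edge in the row of the cell cycle is CCND2.

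In the MLX arm, MLXIP (MondoA) fell as MLX did, by 0.35 ± 0.08 with both drugs and by 0.41 ± 0.08 with the inhibitor, and had 38.9 ± 5.8 normalised CPM with both drugs, 37.2 ± 1.022 with the inhibitor, 44.1 ± 3.007 with 5-azacitidine and 49.4 ± 1.3 with vehicle (SD, n = 3 each). Of 4 known targets of these factors, TXNIP and KLF10 were well expressed in every group. TXNIP, an inhibitor of glucose uptake and a standard MondoA target, had 174 ± 11 normalised CPM with both drugs, 116 ± 10.4 with the inhibitor, 76.4 ± 6.2 with 5-azacitidine and 72.02 ± 6.2 with vehicle. Its rise was 1.27 ± 0.07 with both drugs and 0.69 ± 0.07 with the inhibitor (edgeR adjusted p = 2.36e-14 and 7.08e-09). KLF10, a zinc-finger repressor, had 43.2 ± 2.2 normalised CPM with both drugs, 40.1 ± 0.95 with the inhibitor, 22.5 ± 2.961 with 5-azacitidine and 23.4 ± 2.3 with vehicle, and rose by 0.88 ± 0.08 and 0.78 ± 0.08. PKLR, a pyruvate kinase, could be tested only through the groups where it was high, and no change is read from it. It had 0.974 ± 0.24 normalised CPM with both drugs, 0.644 ± 0.13 with the inhibitor, 0.130 ± 0.11 with 5-azacitidine and 0.101 ± 0.078 with vehicle, and ARRDC4, the other listed target, was at 0 in all 12 libraries. Of the other relatives of the network, MYCL, a MYC paralogue, was scarce, at 0.993 ± 0.41 normalised CPM with both drugs, 0.708 ± 0.19 with the inhibitor, 0.205 ± 0.12 with 5-azacitidine and 0.233 ± 0.23 with vehicle. With these few counts it could be tested only through the groups with the inhibitor, and no change is read from it. MYCN and MLXIPL did not have enough counts to be tested.

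In the MGA arm, of 12 genes of PRC1.6, 5 were lower and 2 higher with both drugs and again with the inhibitor alone. Among well expressed genes 43.4% fell and 25% rose with both drugs, and 40.3% and 22.2% with the inhibitor. The count is near these shares, and nothing is read from it about the complex. With 5-azacitidine 1 was higher and 2 were lower, a count of 3 that fell to 1 without vehicle replicate 1, AZA replicate 2 or AZA replicate 3 and to 0 without vehicle replicate 3. L3MBTL2, a subunit particular to this complex, had 34.4 ± 2.5 normalised CPM with both drugs, 36.9 ± 0.33 with the inhibitor, 58.1 ± 2.4 with 5-azacitidine and 60.8 ± 0.55 with vehicle (SD, n = 3 each), a fall of 0.82 ± 0.06 with both drugs (edgeR adjusted p = 8.02e-12). PCGF6, the other defining subunit, fell by 0.54 ± 0.08 and TFDP1, the partner of E2F6, by 0.46 ± 0.05, while E2F6 stood at −0.03. The 2 that rose with both drugs, named after their values were seen, were the ubiquitin ligase RING1 at 0.43 ± 0.07 and its partner RYBP at 0.29 ± 0.08. WDR5, HDAC1 and HDAC2 of this list are also in the lists above. Of 15 germline genes that PRC1.6 is known to silence in mouse cells, 4 had enough counts to be tested, namely STAG3, TAF7L, MAEL and SYCP3. STAG3, a meiotic cohesin subunit and the one gene of the 15 over 1 CPM in vehicle, had 27.3 ± 3.7 normalised CPM with both drugs, 22.4 ± 0.71 with the inhibitor, 12.5 ± 1.1 with 5-azacitidine and 11.7 ± 0.74 with vehicle, and rose by 1.22 ± 0.09 with both drugs and 0.93 ± 0.09 with the inhibitor. TAF7L had 0.899 ± 0.20 normalised CPM with both drugs, 0.533 ± 0.11 with the inhibitor, 0.111 ± 0.054 with 5-azacitidine and 0.102 ± 0.017 with vehicle. With so few counts TAF7L could be tested only through the groups with the inhibitor, and no change is read from it. The other 13, MAEL and SYCP3 among them, averaged under 0.5 CPM in every group, and no change is read from them. SYCP1, SLC25A31 and TEX101 were at 0 throughout.

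The genes whose levels ran most like those of MYC over the 12 libraries, among 9336 protein-coding genes of at least 5 CPM on average, were PIP4K2A, DAP, CYFIP2, FLNA and FYN, with Pearson r of 0.984, 0.981, 0.977, 0.976 and 0.975 on log2 CPM. PIP4K2A averaged 75.1 normalised CPM with both drugs, 74.6 with the inhibitor, 54.6 with 5-azacitidine and 62.6 with vehicle, so that, like MYC, it stood lowest with 5-azacitidine. The most opposite were CFL2, NCAPG and ZNF655, with r of −0.979, −0.977 and −0.977. NCAPG, a condensin subunit, averaged 91.8 normalised CPM with both drugs, 90.6 with the inhibitor, 127.1 with 5-azacitidine and 107.7 with vehicle. For MXI1 the most alike were LILRB1, ADGRB2, ARID3A, RUSF1 and REPIN1, with r from 0.993 to 0.996, and the most opposite BTBD1, PYM1 and FAM72A, from −0.991 to −0.989. ARID3A, a B-cell transcription factor, averaged 59.3 normalised CPM with both drugs, 56.3 with the inhibitor, 18.2 with 5-azacitidine and 18.96 with vehicle. The 12 libraries fall into those with and those without the inhibitor, which by itself gives high values of r, so these figures describe the order of the groups and carry no test.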

How the data were processed

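Poly(A) RNA of 12 libraries was sequenced, with 3 per group as the labels give them. The submitters' processing notes name cutadapt 5.1, FastQC 12.1, bcl2fastq 2.17.1.14, Subread 2.1.2 and STAR 2.7.11b, and GRCh38. The authors deposited expected counts, 1 row per gene. According to the header line, these came from featureCounts 2.1.1 over exons of annotation release 114 with strand ignored. Multi-mapped reads were split into fractions and reads over more than 1 gene left out. It could not be settled whether pairs or single reads were counted. The header command lists 16 libraries, and counts were given only for the 12 used here.

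Counts were rounded to whole numbers and fitted in R 4.3.3 with edgeR 4.0.16 on all 12 libraries, with 1 mean per group, TMM scaling and the filterByExpr filter (17869 genes, 99.93% of counts). Comparisons used the quasi-likelihood F-test with Benjamini-Hochberg adjustment over all tested genes, with calls at an adjusted p under 0.05. SEs are the log2 fold change over the root of F, and intervals are at 95%. A count of 0 allows up to 3 counts, 0.0826 to 0.0835 CPM, by counting error only. The biological coefficient of variation was 6.05%.

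Alternatives were size factors from DESeq2, plain library totals, no filter, at least 5 CPM in 3 libraries, DESeq2 1.42.0, limma voom (limma 3.58.1), only the 2 groups compared, blocks, and each library left out. Fits without the 2 most mitochondrial libraries, or without mitochondrially encoded genes, were added after seeing the data. The fit was also run on simulated counts in which far fewer genes changed than were called with the inhibitor here. That run does not test the scaling under so wide a change. The 9 members and the gene lists were chosen with earlier results of these data known. By rule, the text names the 9 members, in each list the 4 tested genes of smallest adjusted p against vehicle, and the 5 most and 3 least alike genes for MYC and for the member of largest change with both drugs. Other list genes named were chosen after their values were seen, and the effect of 5-azacitidine alone on the genes of MYC protein stability is not reported here. Correlations used log2 CPM with a prior count of 2, and biotypes came from GENCODE 29. Tables and figures were made with Python 3.11.15, pandas 2.3.3 and matplotlib 3.10.9.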

Additional observations from a re-analysis of the deposited data

Results flagged for a closer look

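For 3 genes from the lists around the network the effect of 5-azacitidine differed between cells with and without the inhibitor, by the edgeR interaction test. That test called 0.716% of all tested genes. Among the 10016 genes with a mean of at least 5 CPM it called 0.449% higher and 0.769% lower. The 3 genes were picked from all the lists by this call, so nothing is read from their number about the network. TXNIP, the MondoA and MLX target, had an interaction of 0.50 ± 0.10 SE (log2, edgeR adjusted p = 0.0166). Its levels were 179, 162 and 182 normalised CPM with both drugs, 122, 123 and 104 with the inhibitor, 77.4, 69.7 and 82.02 with 5-azacitidine, and 73.4, 77.4 and 65.3 with vehicle, so that 5-azacitidine went with 0.58 more on top of the inhibitor and 0.08 more without it. The call was lost without vehicle replicate 1, vehicle replicate 2, HDAC3i replicate 3, AZA replicate 2 or HDAC3i+AZA replicate 1 (edgeR adjusted p = 0.0572, 0.0565, 0.0757, 0.0747 and 0.0649).

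MIR17HG, the host transcript of the miR-17 to miR-92 cluster and a MYC target, had an interaction of −0.85 ± 0.15 (edgeR adjusted p = 0.008), which was called in all 22 alternatives run for it. Its levels were 37.5, 48.3 and 35.4 normalised CPM with both drugs, 55.8, 53.4 and 69.1 with the inhibitor, 65.9, 93.7 and 87.9 with 5-azacitidine, and 62.6, 66.6 and 72.9 with vehicle. PLK4, the kinase of centriole duplication, had −0.39 ± 0.10 (edgeR adjusted p = 0.049), with 39.7, 49.3 and 45.3 normalised CPM with both drugs, 53.01, 50.3 and 54.1 with the inhibitor, 74.9, 86.0 and 79.5 with 5-azacitidine, and 71.2, 71.5 and 72.6 with vehicle. PLK4 lost its call in 10 of the 12 fits that left out 1 library, all but those without AZA replicate 1 or HDAC3i+AZA replicate 2, with an edgeR adjusted p of up to 0.175. On all 12 libraries it also lost its call with limma (limma adjusted p = 0.0511) and with scaling by library totals only (edgeR adjusted p = 0.0535).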

How the results depend on the processing

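Over the 9 members, 6 comparisons and all alternatives, 1199 of 1226 values kept their status, 20 lost a call and 7 gained one. The 1199 include values called in neither fit, and values from fits that left out a library outside the comparison. No value called in the main fit or in the alternative changed direction. Values called in neither could change sign and still count among the 1199, as the MNT interaction did (−0.09 to 0.10). The count of members called in 5-azacitidine against vehicle, 2 in all, ran from 1 to 2 with 1 library left out. Against the inhibitor, both drugs had 1 member called by edgeR and 2 by DESeq2 (MXD4 and MAX). The interaction had 0, and 0 to 1 with 1 library left out (MYC, without HDAC3i+AZA replicate 2). With no filter on low counts MAX also lost its call in both drugs against 5-azacitidine (edgeR adjusted p = 0.155), as it did with only those 2 groups fitted (0.0773). The cause was not tested, beyond there being fewer libraries or more genes in those fits. Levels moved by less than 1 SD with DESeq2 size factors or library totals. The filter of 5 CPM dropped MXD1 and cut the MYC-repressed genes called with both drugs to 6 and the germline genes to 1. Median log2 changes over all tested genes stayed within 0.0139 of 0 between groups. Replicate numbers are shared between groups. Deviations of same-numbered libraries from their group means correlated by −0.059 to 0.067, with 0 of 18 pairs over 0.1. These were taken over all tested genes with 3 libraries a group, so a pairing that touched few genes could go unseen. With the replicate number as a block, MGA passed in the inhibitor against vehicle (−0.16, edgeR adjusted p = 0.0449), and no other member changed its call. With the block taken from library names instead, MGA passed (0.0237), while MXD1 with both drugs (0.0803) and MAX in both drugs against 5-azacitidine (0.0721) lost their calls. MXD1, with 50 to 117 counts a library, is the member that depth limits most.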
